A study of Mus musculus with 4 samples.

Results

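The genes described here encode the protein machinery of the microRNA pathway: the 4 Argonautes (Ago1 to Ago4), the 3 TNRC6 scaffolds (Tnrc6a, Tnrc6b, Tnrc6c) and the processing factors Dicer1, Drosha and Dgcr8. They were taken by their GENCODE vM21 symbol, and all 10 were found among the 55421 identifiers of the count table. The RNA came from E14 cells, a mouse embryonic stem cell line of 129/Ola background taken from a blastocyst, grown on gelatin in medium with serum and LIF. Cells with a knockout of the microRNA cluster miR-290-295 (KO, n = 2 libraries) were set against wild-type cells (WT, n = 2 libraries). The libraries are called biological duplicates, and the labels do not tell whether the KO libraries are separate clones, so a p-value here speaks only of how these 4 libraries vary, which may be technical.

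In the nucleus, DROSHA and its RNA-binding partner DGCR8 cut a hairpin out of the primary microRNA transcript, and in the cytoplasm DICER1 trims this hairpin to a short duplex. An Argonaute protein keeps 1 strand as a guide and pairs its seed with sites in the 3' untranslated region (3' UTR) of messenger RNAs. TNRC6 proteins bind Argonaute and bring in the deadenylases that shorten the poly(A) tail of the target. In mouse embryonic stem cells the miR-290-295 cluster is a main source of the guides that this machinery carries.

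Of the guides that the KO cells lack, only 7 names, all ending in 3p, were looked up. Those matched are shown with their seed, bases 2 to 8, in capitals. The sequences are those of RefSeq (GRCm38.p6), in which 6 of the 7 names looked up were matched; the other is mmu-miR-292a-3p. Of these, 3 carry the same seed AAGUGCU, and 2 differ from it at the last seed base.
mmu-miR-291a-3p: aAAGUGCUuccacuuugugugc
mmu-miR-294-3p: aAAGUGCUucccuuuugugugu
mmu-miR-295-3p: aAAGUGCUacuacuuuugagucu
mmu-miR-290a-3p: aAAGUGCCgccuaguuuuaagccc
mmu-miR-291b-3p: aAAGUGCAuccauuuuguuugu
mmu-miR-293-3p: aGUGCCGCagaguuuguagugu
The seed of mmu-miR-293-3p is a different one, GUGCCGC.

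The libraries held 12726123 and 11764868 counts in KO and 12163759 and 9925557 in WT. The 7 plus-strand microRNA genes of the cluster held 0 counts in each KO library (95% Poisson upper bound 3.69), against 88 (70.6 to 108) and 39 (27.7 to 53.3) in WT. Of 10 markers of embryonic stem cells, all tested, 1 was called higher and 2 lower, where 7.42% and 4.96% of all tested genes were. Fgf4 was the higher one (log2 fold change 0.80), and Klf4 (-1.59) and Utf1 (-0.91) were the lower ones. The summed level of the 10 was 3845 to 3946 CPM in KO and 3822 to 4221 CPM in WT. The summed level of 10 primitive endoderm markers was 26.5 to 27.7 CPM in KO and 183 to 201 CPM in WT. Of these 10, 7 were called lower (4.96% of all tested genes). Pdgfra, 1 of the 7, held 4 and 4 counts in KO and 57 and 35 in WT. Sox17, also called, held 11 and 7 in KO and 62 and 44 in WT. Both needed the WT libraries to pass the filter on low counts, so a call could only be lower. Fibroblast markers, 8 in all, summed to 15.6 to 26.9 CPM in KO and 41.6 to 64.0 CPM in WT, of which Thy1 alone held 9.82 and 20.3 CPM in KO and 26.8 and 50.2 CPM in WT, and Col5a1 a mean of 5.78 ± 0.725 CPM (SD, n = 2) in KO and 12.4 ± 0.462 CPM (n = 2) in WT. Col1a1 was below 2 CPM in each library, Col1a2 and Lum were at 0 in 3 of the 4, and Col3a1, Postn and Dcn at 0 in all 4. The 3 fibroblast markers that could be tested, Thy1, Col1a1 and Col5a1, were called lower, against 4.96% of all tested genes. DESeq2 called 2 of them lower. Col1a1 held 5 and 4 counts in KO and 21 and 17 in WT. It too needed the WT libraries to pass the filter, so it could only be called lower. The lower primitive endoderm markers, Thy1, Col1a1 and Col5a1 moved with the genotype in every result below, and their part in those results was not tested. In bulk RNA, fewer cells of a type and less RNA per cell cannot be told apart.

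Ago1 and Tnrc6a were higher in KO, with fitted fold changes of 2.00 and 1.49 over WT. Ago2, the main Argonaute transcript of these cells, had a fitted fold change of 0.744 and missed the threshold. Levels are given in CPM, counts scaled to the library total. Of the 9 genes that could be tested, 2 were called higher, where 7.42% of all 14427 tested genes were (edgeR's quasi-likelihood test, Benjamini-Hochberg adjusted p below 0.05). The number called lower was 0, against 4.96% of all genes; 1 (Ago2) was lower at an unadjusted p below 0.05, where 13.0% of all genes were, and DESeq2 also called 0 lower. Both KO libraries were above both WT libraries for 4 of the 9 (29.2% of all tested genes) and below both for 2 (28.8%), so 6 of the 9 did not overlap, a share close to the 58.0% of all tested genes. The median log2 fold change of the 9 was 0.16, next to -0.01 for all tested genes.

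**Figure D1:**
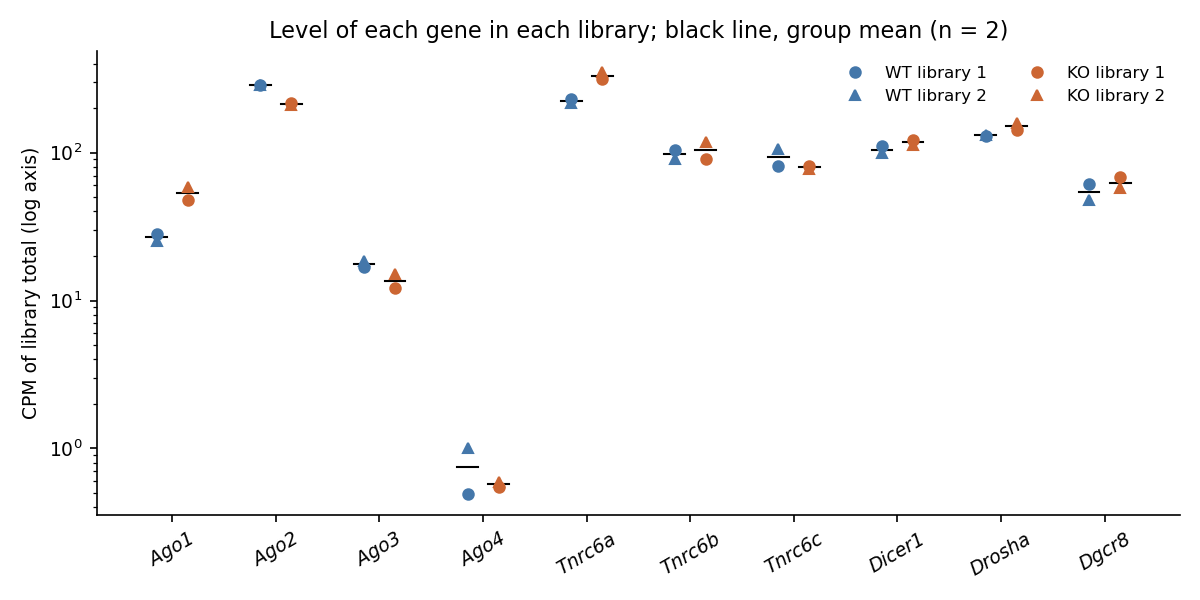
Level of each of the 10 genes in each library, in CPM of the library total on a log axis, with WT in blue, KO in orange and the group mean as a black line. Ago1, Tnrc6a, Dicer1 and Drosha have both KO libraries above both WT libraries, and Ago4 lies near 1 CPM or below in all 4 libraries.

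Among the Argonautes, AGO2 is the one with strong slicer activity, able to cut a target that pairs fully with the guide, and AGO1, AGO3 and AGO4 act chiefly through TNRC6. Ago1 (ENSMUSG00000041530) lies on the minus strand at chr4:126435012-126468583 (GRCm38), between Ago3 (chr4:126331704-126429556) and Ago4 (chr4:126489541-126533472), which have the same strand. Ago1 was at 47.9 and 59.0 CPM in the KO libraries and at 28.2 and 25.2 CPM in the WT libraries. Both KO values stood above both WT values, and the gap between the groups was larger than the gap within either. The log2 fold change was 1.00 (SE 0.20, edgeR adjusted p = 0.0143). The call did not hold without KO library 2, where the change was 0.85 and the SE grew to 0.31. Without KO library 1 the change was 1.15, with an SE of 0.30. Some loss of precision thus came with either KO library left out. The genes of chromosome 4 had a median log2 fold change of -0.04 (897 tested genes).

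Ago2 (ENSMUSG00000036698, chr15:73095844-73184935, minus strand) was at 216 and 211 CPM in KO and at 286 and 288 CPM in WT. The libraries of each group lay close together and the groups did not overlap. The log2 fold change of -0.43 (SE 0.14) did not pass adjustment (edgeR adjusted p = 0.0731), and it lay between -0.44 and -0.41 with any 1 library left out. The 554 tested genes of chromosome 15, which also holds Tnrc6b and Drosha, had a median of -0.15, and WT library 1 exceeded WT library 2 there by a median of 0.19 (log2); the part of this in the value of Ago2 was not tested. The 3' end of Ago2 shares 219 exon bases with Chrac1 on the opposite strand, a histone-fold gene with 432 and 457 counts in KO and 488 and 345 in WT. Without a stated strand setting, reads of this stretch cannot be told apart. The level of Ago2, its place in the order of levels, the Argonaute shares and sum, and the ratios that use it carry this limit.

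Ago3 (ENSMUSG00000028842) was at 12.2 and 15.0 CPM in KO and at 16.9 and 18.4 CPM in WT, which gave a log2 fold change of -0.37 (SE 0.25, edgeR adjusted p = 0.368). Its groups did not overlap, but the gap between them was smaller than the gap within KO. Ago4 (ENSMUSG00000042500) held 7 and 7 counts in KO and 6 and 10 in WT and did not pass the filter on low counts. The Poisson intervals of these counts, 2.81 to 14.4 in each KO library and 4.80 to 18.4 in WT library 2, overlap, and a difference was not detectable at this depth.

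Because the Argonaute genes were counted in the same library, their shares of the family's counts do not depend on how libraries are scaled. In these 3' tag libraries a transcript gives reads near its end only, so counts were not divided by length. The share of Ago1 was 17.3% (95% exact binomial interval 16.1 to 18.6) and 20.6% (19.3 to 22.1) in KO, against 8.50% (7.66 to 9.41) and 7.56% (6.69 to 8.52) in WT. That of Ago2 was 78.1% and 73.9% in KO and 86.3% and 86.6% in WT. Ago1 thus made up more of the Argonaute counts in both KO libraries than in either WT library, and Ago2 less. Ago3 held 4.40% and 5.27% in KO and 5.08% and 5.54% in WT, and these ranges overlap. With 2 libraries against 2, an exact two-sided permutation test cannot give a p below 0.33, so these shares were not tested. The intervals cover counting error only. Summed over the family, the Argonautes were at 277 and 286 CPM in KO and at 332 and 333 CPM in WT.

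**Figure D2:**
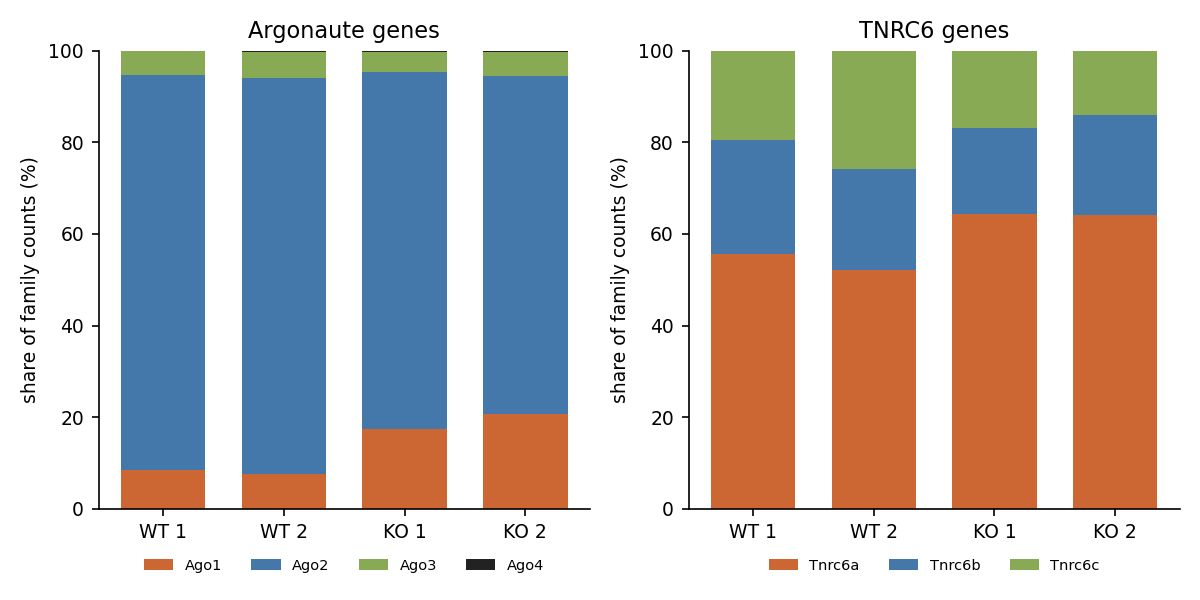
Share of each gene in the counts of its family, in percent, for the Argonaute genes (left) and the TNRC6 genes (right), 1 bar per library. The lowest segment, Ago1 on the left and Tnrc6a on the right, is taller in both KO bars than in both WT bars.

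TNRC6A, TNRC6B and TNRC6C are related scaffold proteins, rich in glycine-tryptophan repeats, that link Argonaute to the CCR4-NOT and PAN deadenylases. Tnrc6a (ENSMUSG00000052707, chr7:123123885-123195296, plus strand) was at 313 and 351 CPM in KO and at 232 and 216 CPM in WT. All KO values were above all WT values, by more than the spread within either group. The log2 fold change was 0.57 (SE 0.15, edgeR adjusted p = 0.0339). The call did not hold without KO library 1 (0.66, adjusted p = 0.118) or without KO library 2 (0.49, adjusted p = 0.285). Chromosome 7 as a whole had a median of -0.01 (1147 tested genes).

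Its paralogs were not called. Tnrc6b was at 90.9 and 119 CPM in KO and at 104 and 91.2 CPM in WT, with a log2 fold change of 0.10 (SE 0.18, edgeR adjusted p = 0.766). KO library 1 held the lowest value and KO library 2 the highest, so the groups overlapped; the change was -0.10 without KO library 2 and -0.01 without WT library 2. Tnrc6c was at 81.6 and 77.3 CPM in KO and at 81.2 and 106 CPM in WT, with a log2 fold change of -0.23 (SE 0.17, edgeR adjusted p = 0.432). Its WT library 1 lay between the KO libraries, and the change was -0.05 without WT library 2. Within the family, Tnrc6a took 64.4% and 64.2% of the counts in KO and 55.5% and 52.2% in WT. Tnrc6b took 18.7% and 21.7% in KO and 25.0% and 22.1% in WT, and Tnrc6c 16.8% and 14.1% in KO and 19.5% and 25.7% in WT.

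**Figure D3:**
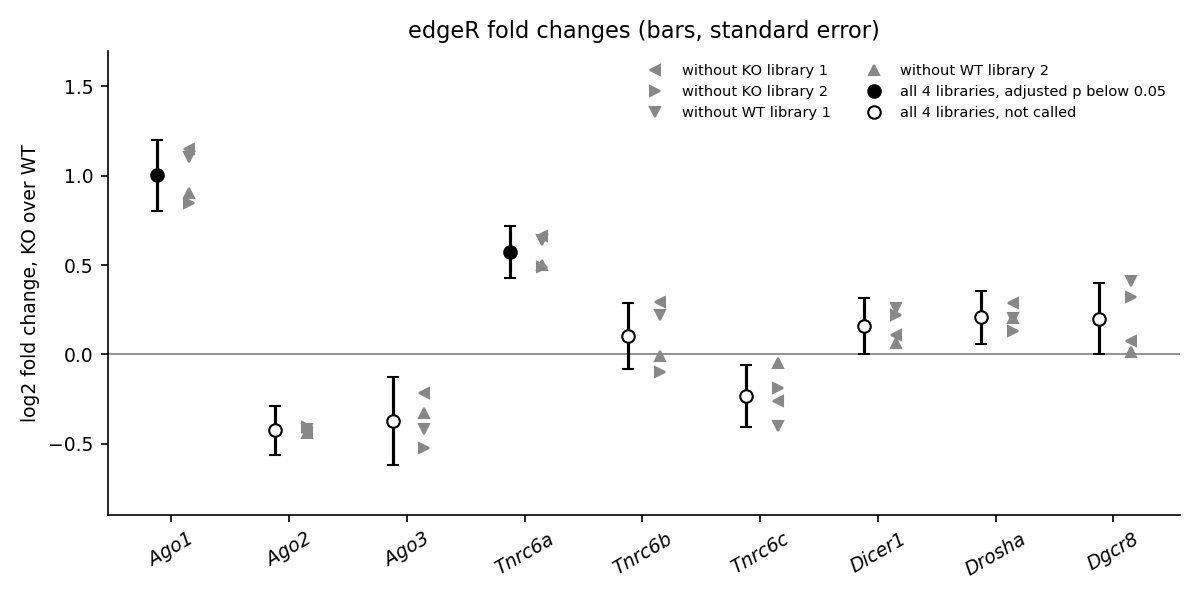
Log2 fold change of KO over WT for the 9 tested genes, with the SE as bars, filled where the adjusted p was below 0.05; grey triangles give the value with 1 library left out. Ago1 (0.85 to 1.15), Tnrc6a (0.49 to 0.66), Dicer1, Drosha and Dgcr8 stay above 0. Ago2, Ago3 and Tnrc6c stay below 0, and Tnrc6b falls on both sides.

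The processing factor genes Drosha, Dgcr8 and Dicer1 were not called, with log2 fold changes of 0.16 to 0.21. Drosha, the nuclear ribonuclease, was at 142 and 159 CPM in KO and at 129 and 132 CPM in WT (log2 fold change 0.21, SE 0.15, edgeR adjusted p = 0.408). Dgcr8, its partner, was at 68.0 and 57.2 CPM in KO and at 61.3 and 47.7 CPM in WT (0.20, SE 0.20, adjusted p = 0.566). Dicer1, the cytoplasmic ribonuclease, was at 122 and 112 CPM in KO and at 111 and 99.1 CPM in WT (0.16, SE 0.16, adjusted p = 0.566). The KO values of Drosha and Dicer1 were above the WT values by less than the spread within KO, and those of Dgcr8 overlapped them. With 1 library left out, Dgcr8 lay between 0.01 and 0.41, Dicer1 between 0.06 and 0.26 and Drosha between 0.13 and 0.29, and none of the 3 was called. The ratio of Drosha to Dgcr8 counts was 2.09 and 2.77 in KO and 2.10 and 2.78 in WT, so the genotypes covered the same range. The 3' end of Dgcr8 shares 825 exon bases with Trmt2a, a tRNA methyltransferase gene on the opposite strand, which held 480 and 394 counts in KO and 380 and 337 in WT. As for Ago2, reads of this stretch cannot be told apart without a stated strand setting. Gm49776, a protein-coding gene on the same strand, shares 327 exon bases with Dgcr8 and held 0 counts in every library. A strand setting would not tell reads of those bases apart. The level of Dgcr8, its place in the order of levels and its ratio to Drosha carry these limits. Mir1306, which lies within an exon of Dgcr8, held 0 counts in every library.

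In WT the order of levels ran from Ago2 (287 ± 1.59 CPM, mean ± SD, n = 2) through Tnrc6a (224 ± 11.3), Drosha (131 ± 2.45), Dicer1 (105 ± 8.14), Tnrc6b (97.6 ± 9.12), Tnrc6c (93.7 ± 17.7), Dgcr8 (54.5 ± 9.67), Ago1 (26.7 ± 2.13) and Ago3 (17.6 ± 1.12) to Ago4 (0.750 ± 0.364). The neighbours Dicer1, Tnrc6b and Tnrc6c did not differ beyond their spread, and the libraries of the other neighbours did not overlap. KO cells had Tnrc6a (332 ± 27.4) at the top and Ago2 (213 ± 3.45) next. Ago1 (53.5 ± 7.82) stayed in the eighth place, where its libraries now overlapped those of Dgcr8 (62.6 ± 7.67). Dicer1 (117 ± 6.73) and Tnrc6b (105 ± 19.7) also overlapped in KO.

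The 3' UTRs were then searched for the complement of the seed shared by miR-291a-3p, miR-294-3p and miR-295-3p, on the transcript strand, with the words AGCACTT (bases 2 to 8), GCACTTA (bases 2 to 7, then A), AGCACTTA (both) and the 6-base core GCACTT, which the others contain. A word of at least 7 bases was present in the longest annotated 3' UTR of 5 of the 10 genes (Ago1, Ago3, Tnrc6b, Tnrc6c and Dicer1), and of 20.9% of the 12491 tested genes with a 3' UTR. These 3' UTRs are long, with a median of 3766 bases against 1164 for all tested genes. Per length, the 10 genes held 0.166 such matches per kilobase and all tested genes 0.165. All matches, the 6-base core included, are shown for the called genes Ago1 and Tnrc6a; for Ago3 only the 8-base words, found in no other gene of the 10, are shown. Capitals mark the match.
Ago1 at chr4:126438818-126438824: cttaaggcactatgGCACTTAgctctgag
Ago1 at chr4:126438531-126438536: atccattgacatttGCACTTtcagacgtg
Ago1 at chr4:126435304-126435310: tggtgtatgatgttGCACTTAgcagccat
Tnrc6a at chr7:123193619-123193624: ccaggacgggccctGCACTTtgaacaggc
Ago3 at chr4:126338311-126338318: aggactttaattgcAGCACTTAagaggca
Ago3 at chr4:126335515-126335522: gctcaaatgttaagAGCACTTAttgtgct
The coordinates are those of GRCm38, and the sequences are read from GENCODE vM21 transcripts, so the matches of Ago1 and Ago3 read along the minus strand. In Ago1 the 2 words of 7 bases stood 679 and 4193 bases into a 3' UTR of 4491 bases, and a lone 6-base core stood at 967. Tnrc6a held the 6-base core alone, once in 2345 bases. Ago3, with 3 words of at least 7 bases in 12742 bases, 2 of them of 8 bases, and 4 lone copies of the core, had a log2 fold change of -0.37 and was not called. Ago2 (11064 bases) held 2 copies of the core and no longer word, and no core was present in the windows of Drosha (169 bases) or Dgcr8 (1574 bases). Such a match is a description of the letters. The shortest annotated 3' UTR held a word of at least 7 bases in 3 of the 10 genes and in 11.9% of all tested genes. Its median length was 1493.5 bases in the 10 and 438 in all tested genes. The files do not record which 3' end a read came from.

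**Figure D4:**
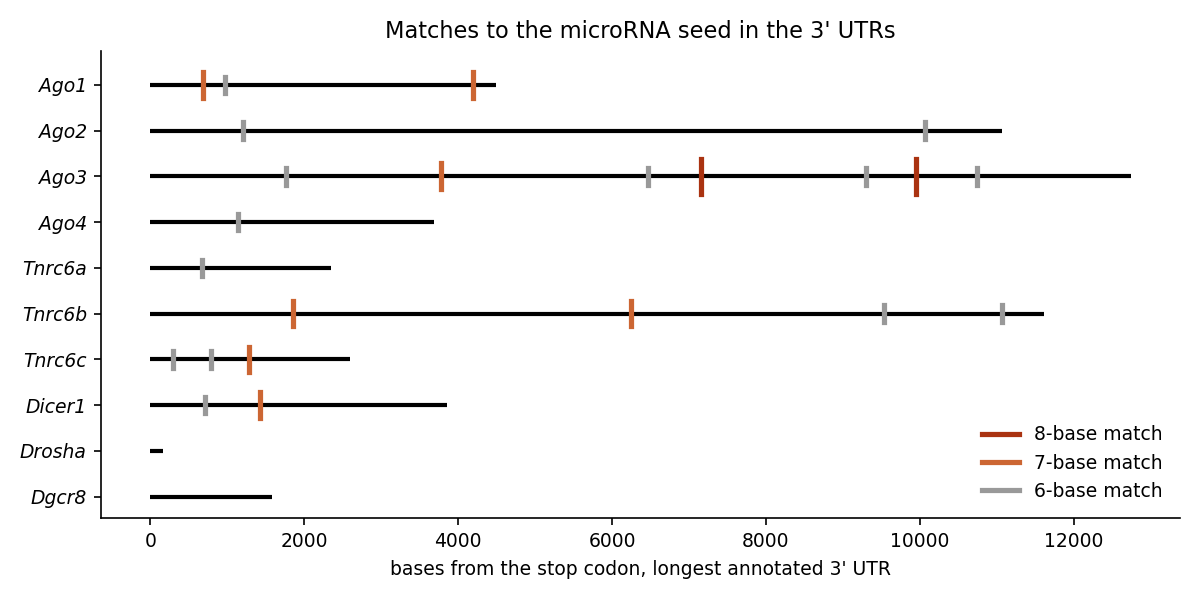
The longest annotated 3' UTR of each gene, drawn to scale in bases from the stop codon, with ticks for 6-base, 7-base and 8-base matches to the seed. Ago1 has 2 7-base matches, Ago3 has 2 8-base matches, and Drosha and Dgcr8 have none.

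Genes that work with this machinery were followed in 5 lists, 74 genes in all, each of which was tested. In total 7 of the 74 were called, 3 higher and 4 lower, next to 12.4% of all tested genes. The list of Argonaute loading, modification and turnover had 2 of 17 higher (7.42% of all tested genes) and 1 lower (4.96%), with a median log2 fold change of 0.03. Ankrd52 encodes a subunit of the protein phosphatase 6 complex that removes phosphate from AGO2. It held 87 and 82 counts in KO and 18 and 8 in WT, and rose by 2.56 on the log2 scale (SE 0.46, edgeR adjusted p = 0.00931; 2.20 to 3.10 with 1 library left out). Ppp6c, the catalytic subunit, was not called (0.46, SE 0.17, adjusted p = 0.119), nor was Csnk1a1, whose kinase phosphorylates AGO2 (-0.02, SE 0.13, adjusted p = 0.934).

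Mov10, an RNA helicase that binds Argonaute complexes, was at 88.5 and 98.6 CPM in KO and at 44.4 and 63.3 CPM in WT (0.80, SE 0.20, edgeR adjusted p = 0.0294). Trim71, an RNA-binding protein of the stem cell cytoplasm, was at 209 and 223 CPM in KO and at 336 and 371 CPM in WT (-0.71, SE 0.14, adjusted p = 0.0132). The groups of both genes were apart. Neither call held without KO library 1 (Mov10 0.89, adjusted p = 0.0701; Trim71 -0.66, adjusted p = 0.136) or without KO library 2 (Mov10 0.73, adjusted p = 0.160; Trim71 -0.75, adjusted p = 0.0762). Hspa4, a chaperone gene, was not called (-0.38, SE 0.13, adjusted p = 0.0864).

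Downstream of TNRC6, the list of deadenylases and poly(A) binding proteins had 1 of 17 higher and 2 lower, where 7.42% and 4.96% of all tested genes were (median 0.03). The poly(A) binding protein genes fell: Pabpc1 was at 2083 and 1749 CPM in KO and at 3321 and 3152 CPM in WT (-0.75, SE 0.14, edgeR adjusted p = 0.00922). Pabpc4 was at 755 and 656 CPM in KO and at 1014 and 1202 CPM in WT (-0.65, SE 0.14, adjusted p = 0.0197). Cnot6, a catalytic subunit of CCR4-NOT, rose from 144 and 101 CPM in WT to 202 and 235 CPM in KO (0.83, SE 0.20, adjusted p = 0.0265). Cnot9 did not pass (0.42, SE 0.16, adjusted p = 0.128). Without KO library 2 the 3 calls were lost (Pabpc1 -0.63, adjusted p = 0.0583; Pabpc4 -0.54, adjusted p = 0.169; Cnot6 0.72, adjusted p = 0.128), and without KO library 1 that of Pabpc4 (-0.74, adjusted p = 0.0521).

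Among Dicer partners and factors that tail or destroy precursors, 0 of 10 were called higher and 1 lower, where 12.4% of all tested genes were called in either direction (median -0.14). At an unadjusted p below 0.05 there was 1 higher and 1 lower, next to 28.2% of all tested genes in either direction, and DESeq2 called 0 higher and 1 lower. The called gene was Lin28a, whose protein blocks the maturation of let-7 precursors, at 74.7 and 56.4 CPM in KO and 113 and 121 CPM in WT (-0.84, SE 0.18, edgeR adjusted p = 0.0185; -0.64 with an adjusted p of 0.199 without KO library 2). Lin28b (-0.54, SE 0.25, adjusted p = 0.187), the helicase gene Dhx9 (0.41, SE 0.15, adjusted p = 0.107) and the RNA editing gene Adar (0.40, SE 0.20, adjusted p = 0.244) were not called, though Dhx9 passed without WT library 1 (0.54, adjusted p = 0.0316).

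Of the 16 nuclear cofactors of DROSHA and export factors 0 were called by edgeR in either direction, next to 12.4% of all tested genes, and 0 by DESeq2 (median 0.10). At an unadjusted p below 0.05 there was 1 higher and 1 lower, where 28.2% of all tested genes passed. The lowest p-values belonged to the helicase gene Ddx17 (0.47, SE 0.14, edgeR adjusted p = 0.0604) and to Ilf2 (-0.48, SE 0.15, adjusted p = 0.0703). Tardbp (0.15, SE 0.16, adjusted p = 0.584) was also not called. Without WT library 1 both Ddx17 (0.56, adjusted p = 0.0223) and the splicing factor gene Srsf3 passed (0.58, adjusted p = 0.0162, against 0.17, SE 0.21, adjusted p = 0.644 with all libraries), and Ilf2 passed without WT library 2 (-0.53, adjusted p = 0.0331). Xpo5, which carries hairpins out of the nucleus, had 0.10 (SE 0.17, adjusted p = 0.751). Decapping and decay factors, 14 genes, likewise had 0 called by edgeR or DESeq2, with 2 higher and 1 lower at an unadjusted p below 0.05, against the same 28.2% (median -0.02). Dcp1b came closest (1.20, SE 0.37, adjusted p = 0.0616), at 7.46 and 7.05 CPM in KO and 2.80 and 3.53 CPM in WT, before Eif4e2 (0.39, SE 0.15, adjusted p = 0.119), Lsm1 (-0.44, SE 0.17, adjusted p = 0.130) and Dcp1a (-0.38, SE 0.26, adjusted p = 0.385). Xpo5, Srsf3, Ppp6c and Csnk1a1 were added to the named genes after their values were seen.

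**Figure D5:**
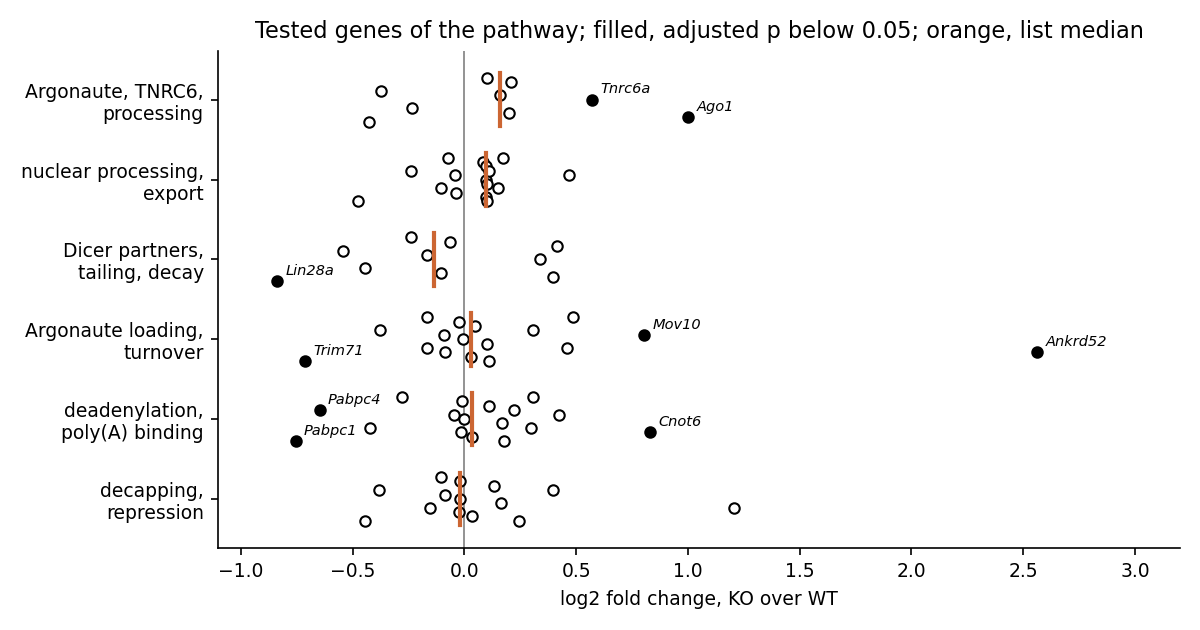
Log2 fold change of KO over WT for the tested genes of the machinery (top) and of the 5 lists, 1 point per gene, filled and named where the adjusted p was below 0.05, with the list median in orange. The medians lie between -0.14 and 0.16, and Ankrd52 stands apart at 2.56.

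Over the 4 libraries, the profiles most like those of the called genes were found by the root mean square distance between log2 CPM values, each taken relative to its mean, among 8711 genes of at least 10 CPM. Fkbp10 (distance 0.05), Pcyt1a (0.06) and Repin1 (0.06) were nearest to Ago1, and 26 genes lay within 0.1 of it. Rpusd1, Tbc1d23 and Rnf20 (each at a distance of 0.02) were nearest to Tnrc6a, which had 200 genes within 0.1. With 4 libraries in 2 groups such likeness rests on few values.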

How the data were processed

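Poly(A) RNA of 4 libraries was sequenced with the QuantSeq 3' FWD kit, per the labels' protocols. The authors deposited raw counts per Ensembl gene, with no normalization. The submitters' processing notes name Trim Galore and GRCm38; the aligner, counter, strand setting and annotation release used by the authors are not given in sources used here. Symbols came from GENCODE vM21 (GRCm38). Levels are CPM, counts scaled to the library total. The two-sided quasi-likelihood test of edgeR 4.0.16 (TMM, filterByExpr, R 4.3.3) was fitted over 14427 genes, with Benjamini-Hochberg adjustment over all of them and a threshold of 0.05. Standard errors (SE) were taken as the absolute log2 fold change over the root of its F value. The script was tested on simulated counts. Alternatives were DESeq2 1.42.0, its size factors, library totals, other filters, a replicate block, thinning and each library left out. The 3' UTRs are those of protein-coding transcripts with an annotated stop codon, the longest per gene. From each pathway list the 4 tested genes with the smallest p and the called genes are named, except for 1 that is not reported here. The genes described, the lists and the tests were chosen with earlier results of these data known.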

Additional observations from a re-analysis of the deposited data

How the results depend on the processing

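With the replicate numbers as a replicate block, 1 of the genes described was called higher (Tnrc6a had 0.57, edgeR adjusted p = 0.0650), and 638 genes in all were higher and 370 lower. The labels give no pairing behind the replicate numbers, and whether same-numbered libraries share a batch is not known. The deviations of same-numbered libraries had a correlation of -0.07 across genes. When only genes averaging 10 CPM or more were kept, the counts over all genes were 636 higher and 391 lower. Without a filter they were 1590 higher and 1193 lower. The number of tested genes differs between these settings, and its part in the counts was not tested. Leaving out 1 library gave 0 to 2 of the genes described called higher, 556 to 1477 genes in all higher, 285 to 1011 lower and 1 to 10 of the 74 pathway genes called. The fold changes then lay between 0.85 and 1.15 for Ago1, 0.49 and 0.66 for Tnrc6a, and -0.10 and 0.29 for Tnrc6b, whose direction turned when KO library 2 (-0.10) or WT library 2 (-0.01) was left out; the lone library is assumed to vary like the other pair, and the cause was not tested. Seed matches were present in 5 of the 10 genes (20.9% of all tested genes) and in 3 with the shortest 3' UTR (11.9%). The 8-base word was present in 1 (3.47%) and the 6-base core in 8 (33.3%). The longest 3' UTRs of the 10 had a median of 3766 bases, against 1164 for all tested genes. Under the scalings tried, the DESeq2 test and thinning, Ago1 and Tnrc6a were called higher, with 0.99 to 1.01 and 0.55 to 0.57. Among the pathway genes, Ddx17 (0.47, edgeR adjusted p = 0.0259) and Dcp1b (1.21, adjusted p = 0.0334) passed without a filter, and Cnot6 (0.85, adjusted p = 0.0618) did not pass with the block.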

Other observations

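The summed counts of the 3 TNRC6 genes were 1.75 and 1.92 times those of the 4 Argonaute genes in the KO libraries and 1.26 and 1.24 times in the WT libraries. Both quantities come from the same library, so the ratio does not depend on scaling. The ratio of Tnrc6a to Ago2 counts was 1.45 and 1.66 in KO and 0.809 and 0.747 in WT, so the more abundant of the pair was Tnrc6a in both KO libraries and Ago2 in both WT libraries. These ratios were chosen after the values were seen and were not tested. Both use the Ago2 count and carry the limit of its overlap with Chrac1.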
